A study of Mus musculus with 20 samples.

Results

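The mitochondrial respiratory chain and ATP synthase were followed through the nuclear genes for their subunits in whole mouse prostate, across castration and testosterone replacement. The members were all probe sets whose single gene symbol starts with Nduf, Sdh followed by a to d, Uqcr, Cox followed by a digit, or Atp5, or is Cycs or Cyc1. The muscle forms Cox6a2, Cox7a1 and Cox8b were left out, so the choice used gene names and no measured value. This gave 75 of the 8251 genes with a probe set of their own, read by 103 of the 12422 probe sets that are not array controls. Of these, 71 probe sets of 64 genes passed a filter on low signal (above 190.8 on at least 5 of 20 arrays) and were tested. By symbol, 28 of the 71 belong to complex I, 4 to complex II, 9 to complex III, 10 to complex IV and 15 to ATP synthase. Another 1 is cytochrome c, and 1 assembly factor of complex I and 3 of complex IV share the naming.

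All mice were 10 to 12 weeks old. The source labels name the strain C57/B6 for the sham mice and no strain for the other groups. Each of the 20 arrays held the prostate RNA of 1 of 5 mice per group. The groups were sham-treated mice (sham), mice examined 3 days after castration (castrated 3 days), mice examined 14 days after castration (castrated 14 days), and mice given a 15 mg testosterone pellet on day 14 of castration and examined 3 days later (testosterone). The testosterone group thus lacked testes like both castrated groups. It also stood 3 days later after castration than the castrated 14 days group, and the pellet and this added time cannot be told apart. The comparisons ask how the genes for oxidative phosphorylation behave while the gland regresses without androgen and when regrowth is started. Values are MAS5 signals, a linear brightness per probe set, and changes are log2 differences of signal plus 12.7. A probe set rose or fell where limma gave a Benjamini-Hochberg adjusted p under 0.05 over all 6913 probe sets tested. Comparisons that share a group share its arrays and are not independent of each other.

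The respiratory chain sits in the inner mitochondrial membrane. Complex I takes electrons from NADH and complex II takes them from succinate. Both pass them through ubiquinone to complex III, and cytochrome c carries them on to complex IV, which reduces oxygen. Complexes I, III and IV pump protons, and ATP synthase uses the resulting gradient to make ATP. A few core subunits are encoded in mitochondrial DNA, which the choice by symbol does not cover. The secretory epithelium of the prostate is known for limited oxidation of citrate in the citrate cycle, so that citrate accumulates. This epithelium depends on androgen for its upkeep.

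On most arrays the members lay within the sham range at 3 days of castration and above it at 14 days, and they stood highest after testosterone. The median log2 deviation of the 71 probe sets from their sham means was -0.10 to 0.06 on sham arrays, -0.20 to 0.0046 on castrated 3 days arrays, 0.044 to 0.26 on castrated 14 days arrays and 0.28 to 0.69 on testosterone arrays. The testosterone arrays all lay above every other array. Castrated 3 days replicate 5 (-0.20) lay below every sham array, and castrated 14 days replicate 3 (0.044) lay below sham replicate 3 (0.056). The summed signal of the members made up 2.10% ± 0.075 of all signal in sham, 2.02% ± 0.11 in castrated 3 days, 2.42% ± 0.11 in castrated 14 days and 2.91% ± 0.37 in testosterone prostates (SD, n = 5 each). In bulk tissue, fewer cells of a type and less RNA per cell cannot be told apart. A total of 4 arrays had a log2 ratio of the 3' over the 5' Gapdh control probe set above 1: castrated 14 days replicates 4 and 5 (2.05 and 1.82) and testosterone replicates 2 and 5 (4.50 and 3.90). The ratio was -0.53 to -0.08 on the other arrays. These 4 arrays also held the highest median deviations of their groups, 0.26 and 0.22 at 14 days and 0.69 and 0.57 after testosterone. Counts without these arrays stand beside each comparison, and a fit with the ratio as a covariate was also made.

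**Figure D1:**
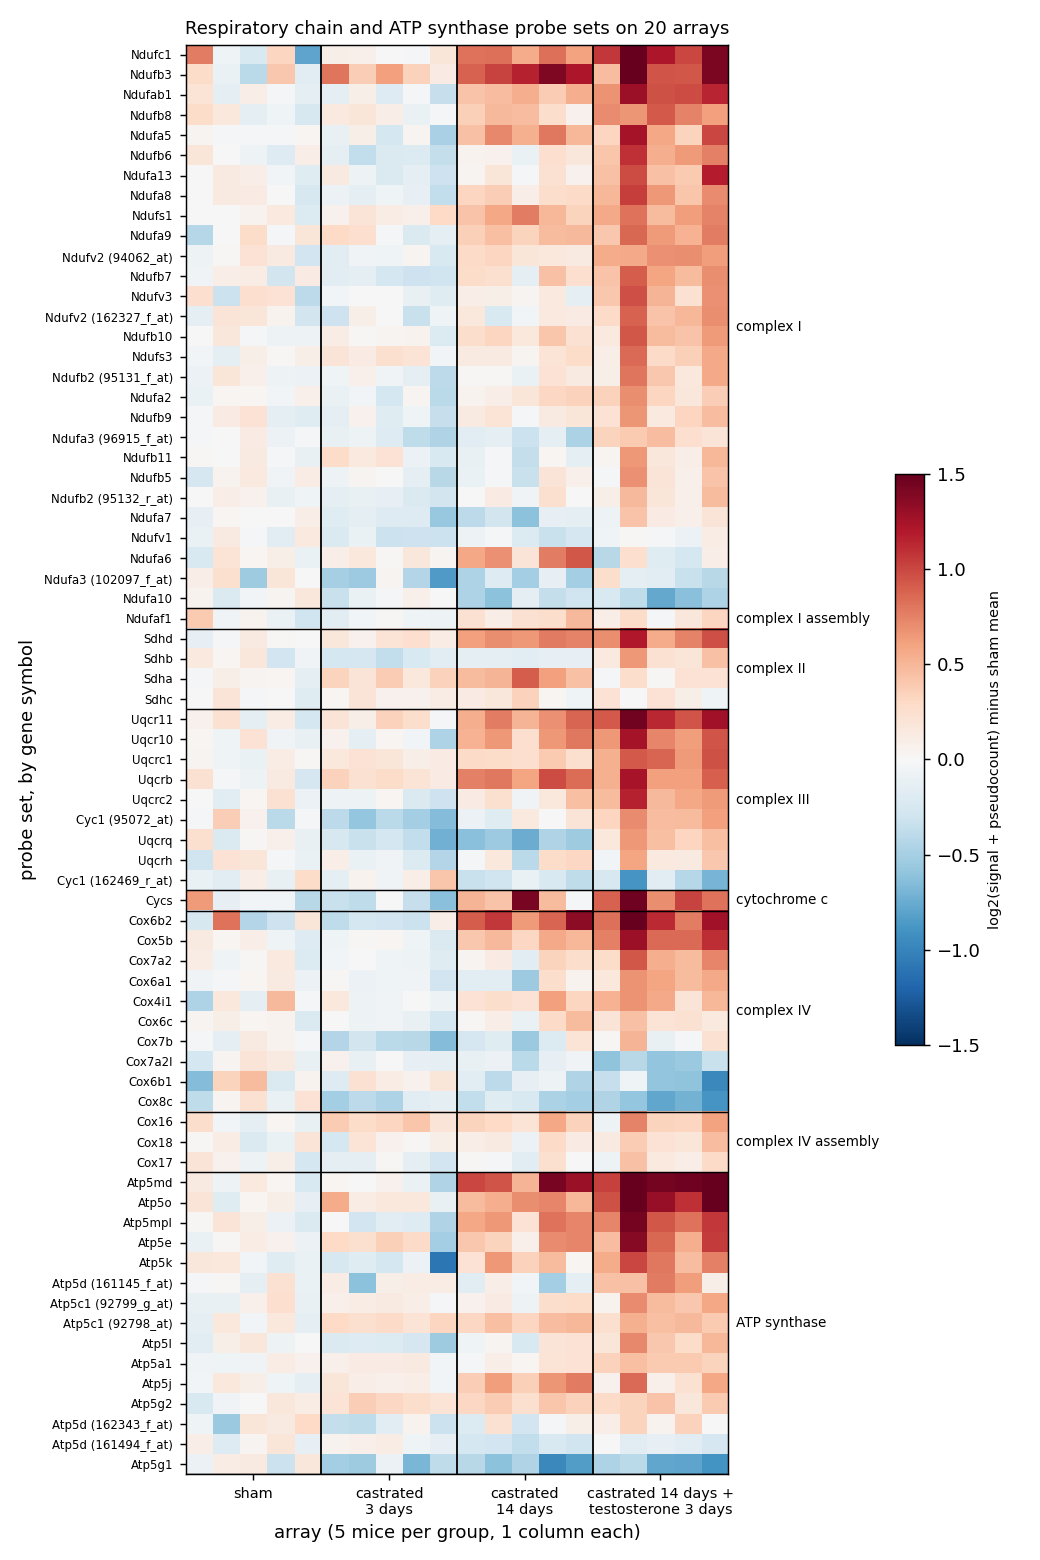
Heat map of the 71 tested probe sets, in rows by group of subunits, on 20 arrays in columns; colour is log2(signal + 12.7) minus the sham mean, with blue lower, red higher and the scale ending at 1.5 on either side. Most rows redden in the castrated 14 days columns and again in the testosterone columns, while Atp5g1, Cox8c and Ndufa10 turn blue.

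**Figure D2:**
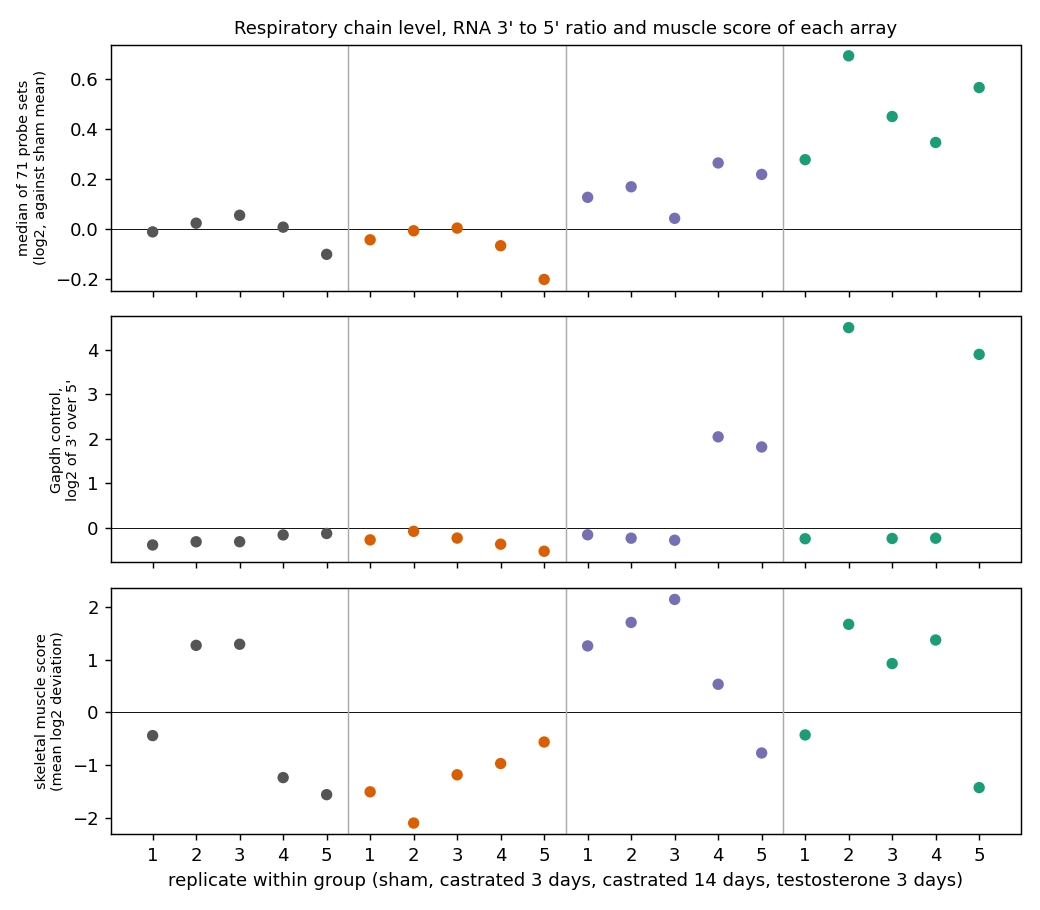
Stacked panels share an x axis of 20 arrays in group order, coloured by group: the median log2 deviation of the 71 probe sets from the sham mean, the log2 ratio of 3' over 5' Gapdh control signal, and the mean log2 deviation of 16 skeletal muscle marker probe sets. The median deviation is 0.28 to 0.69 on testosterone arrays, and the 4 arrays with a raised Gapdh ratio are replicates 4 and 5 of castrated 14 days and 2 and 5 of testosterone.

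Promoters were read because many members moved together, and 60 of the 75 genes had an entry in the RefSeq promoter table (GRCm38.p6). The window ran 250 bases before to 50 after the start of each gene. NRF1 is a transcription factor known for binding promoters of respiratory chain genes, and the NRF1 motif was searched on both strands, allowing any base at its sixth position. It was present in 12 of 60 member genes (20%) and in 1402 of 27025 genes in all (5.19%). The genes in all are those of the promoter table, whether or not they were on the array or passed the filter. The motif of YY1, AAGATGGC, stood in 9 of 60 (15%) against 3.19% of all genes, and ETS sites, searched as ACTTCCGG, stood in 6 (10%) against 4.31%. Neither motif contains the letters of another. The 250 upstream bases are printed for genes with an NRF1 match within these 250 bases. The 3 with the largest rises after testosterone over sham were taken, among members with 1 promoter entry and a probe set name ending in plain _at. They are Sdhd, a membrane anchor of complex II, Atp5k, the e subunit of ATP synthase, and Ndufa8, an accessory subunit of complex I. All 3 lie on the minus strand and are written 5′ to 3′ along the gene, with the NRF1 match in capitals. The stretch of Sdhd is chr9:50603850-50604099, that of Atp5k chr5:108434400-108434649 and that of Ndufa8 chr2:36049339-36049588. The match ends 70 bases before the start in Sdhd, 41 in Atp5k and 21 in Ndufa8. Atp5o and Uqcrc1 had a match in the wider window and rose by more than Atp5k and Ndufa8, but did not meet the conditions for printing. The other genes with the NRF1 motif were Atp5c1, Atp5g2, Cox6a1, Ndufa5, Ndufa6, Sdha and Ndufaf4. Of these, Ndufa6 and Sdha fell with testosterone over castrated 14 days, and Ndufaf4 was not tested. Genes with the motif thus did not all move the same way. A match of letters is a description and shows no binding.
Sdhd: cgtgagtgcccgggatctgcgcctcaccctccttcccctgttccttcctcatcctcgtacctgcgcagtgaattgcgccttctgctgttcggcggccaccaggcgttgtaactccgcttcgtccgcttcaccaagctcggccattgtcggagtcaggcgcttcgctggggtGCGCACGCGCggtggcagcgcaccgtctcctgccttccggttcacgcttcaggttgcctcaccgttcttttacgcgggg
Atp5k: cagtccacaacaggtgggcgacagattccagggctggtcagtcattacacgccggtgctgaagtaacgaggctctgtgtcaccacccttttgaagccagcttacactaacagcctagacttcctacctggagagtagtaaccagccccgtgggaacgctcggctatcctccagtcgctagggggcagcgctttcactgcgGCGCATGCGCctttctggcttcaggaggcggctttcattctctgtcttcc
Ndufa8: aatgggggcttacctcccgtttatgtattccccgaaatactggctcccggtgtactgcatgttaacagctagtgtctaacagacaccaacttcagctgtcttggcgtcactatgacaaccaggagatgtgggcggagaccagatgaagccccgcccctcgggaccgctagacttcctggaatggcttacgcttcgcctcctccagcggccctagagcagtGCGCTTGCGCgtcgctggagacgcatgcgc

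At 3 days of castration, few members had moved. Of 71 probe sets, 2 rose and 4 fell against sham, beside 9.84% of all probe sets tested that rose and 4.46% that fell. The median change of the members was -0.09, against 0.04 over all probe sets tested. Among probe sets with a mean signal above 1000, 2 of 54 members rose and 3 fell, beside 9.26% and 6.82% of 2008 probe sets. Both rises were in ATP synthase, in Atp5c1, the gamma subunit of the central stalk, and in Atp5g2, a gene for the c subunit of the membrane ring. The falls were in complex III (Cyc1 and Uqcrq), complex IV (Cox7b) and ATP synthase (Atp5g1, another gene for the c subunit). Atp5g1 was above the filter on only 4 sham arrays and 1 castrated 3 days array. It was thus tested because of the group where it is high, and its fall is given as a description. None of the 28 complex I probe sets passed the test, with changes between -0.46 and 0.45.

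Cyc1 encodes cytochrome c1, the haem subunit that hands electrons to cytochrome c. Cyc1 (95072_at) signals were 4941, 6474, 5247, 3787 and 4912 on sham arrays and 3817, 3328, 3768, 3507 and 3178 on castrated 3 days arrays. They were 4718, 4423, 5523, 5029 and 5726 on castrated 14 days arrays and 6269.8, 8162, 6899.7, 6949 and 7669 on testosterone arrays. The castrated 3 days values were the low ones, and only the highest of them, 3817, overlapped the lowest sham value. The change at 3 days over sham was -0.51 (SE 0.12, adjusted p = 0.0069) on the log2 scale. The other tested probe set of Cyc1, 162469_r_at, averaged 2370 at 3 days and 2243 in sham and did not pass the test. Uqcrq is a small accessory subunit of complex III. Uqcrq signals were 7632, 5553, 6572, 6795 and 5974 on sham arrays and 5493, 5115, 5380.2, 5013 and 3919.6 on castrated 3 days arrays. They were 4197, 4428, 3845, 4724 and 4465 on castrated 14 days arrays and 7190.2, 10196, 8835, 8073 and 8849.9 on testosterone arrays. Both castrated groups lay wholly below sham, and the testosterone arrays were above every castrated array. Uqcrq changed by -0.38 (SE 0.11, adjusted p = 0.0263) at 3 days over sham.

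Cox7b, a small subunit of complex IV, had 2545, 2859, 2607, 2597 and 2212 on castrated 3 days arrays and 3398, 3123, 3812, 3605 and 3437 on sham arrays. The groups did not overlap, and the change was -0.44 (SE 0.13, adjusted p = 0.0272). Atp5c1 (92798_at) had 3642, 3500, 3620.2, 3421 and 3706 on castrated 3 days arrays and 2669.8, 3294, 2881, 3293 and 2696 on sham arrays, again without overlap. Its change was 0.27 (SE 0.082, adjusted p = 0.03), and that of Atp5g2 was 0.27 (SE 0.082, adjusted p = 0.0303). Members whose groups did not overlap numbered 3 higher and 5 lower, beside 8.77% and 4.54% of all probe sets. These calls were the least stable of the study: only the call of Cyc1 (95072_at) held in all 32 alternative fits. Between 0 and 4 members rose and 1 and 5 fell when any 1 array was left out. Without the 4 arrays of raised Gapdh ratio, none of which is in these groups, 4 rose and 8 fell. Among markers of other cell types, macrophage markers rose in 10 of 13 tested probe sets at 3 days, fibroblast markers in 7 of 11 and luminal markers in 3 of 10, and smooth muscle markers fell in 2 of 8. Their part in the result was not tested.

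By 14 days of castration the picture had changed, and more members rose than fell against sham. Of 71 probe sets, 27 rose and 7 fell, beside 28.6% and 24.3% of all probe sets tested. The members' share that rose was 38.0% and the share that fell 9.86%. The median change was 0.15, against 0.01 over all probe sets tested. Among probe sets with a mean signal above 1000, 22 of 54 members rose and 3 fell, beside 27.5% and 30.6% of 2008. In complex I 10 of 28 rose and 3 fell, in complex II 2 of 4 rose, in complex III 4 of 9 rose and 1 fell, in complex IV 2 of 10 rose and 1 fell, with a median change of 0.005 and a share below that of all probe sets, and in ATP synthase 7 of 15 rose and 2 fell. Cytochrome c and the complex IV assembly factor Cox16 also rose. These counts by complex are small, and no complex was tested as a set. With no filter 23 of all 103 members rose and 17 fell, beside 2319 and 2690 of 12422 probe sets. The largest rises were in Ndufb3, Atp5md, Cox6b2, Uqcrb, Ndufc1, Sdhd, Uqcr11 and Ndufa6.

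Atp5md encodes a small membrane subunit of ATP synthase. Atp5md signals were 2824, 2440.3, 2864, 2636 and 2194 on sham arrays and 2642, 2563, 2696, 2399.8 and 1888 on castrated 3 days arrays. They were 5179.6, 4954, 3693, 6917 and 6361 on castrated 14 days arrays and 5257, 10693, 7009, 7096 and 9103 on testosterone arrays. The castrated 14 days arrays all exceeded every sham and every castrated 3 days array. Atp5md was 2.05-fold higher at 14 days than in sham, a log2 change of 1.03 (SE 0.18, adjusted p = 8.18e-05). Ndufb3, an accessory subunit of the membrane arm of complex I, had 2562, 2814, 3088, 3679.9 and 3224 on castrated 14 days arrays and 1683, 1289, 1041, 1842 and 1226 on sham arrays. The groups did not overlap, and the change was 1.13 (SE 0.21, adjusted p = 1.57e-04).

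Uqcrb is an accessory subunit of complex III at the ubiquinone site. It had 3538, 3632, 3146, 4109 and 3728 on castrated 14 days arrays and 2437, 2053, 1975, 2289 and 1745 on sham arrays. The groups lay apart, with a change of 0.79 (SE 0.12, adjusted p = 2.77e-05). Uqcr11, another accessory subunit of complex III, had 2565, 2997, 2518, 2842 and 3244 on castrated 14 days arrays and 1834, 2070.3, 1603, 1899.6 and 1461 on sham arrays. It changed by 0.68 (SE 0.12, adjusted p = 9.28e-05), without overlap. Ndufc1, an accessory subunit of complex I, had 2327, 2363, 1955, 2360.1 and 2009 on castrated 14 days arrays and 2270.3, 1260.2, 1128, 1655 and 757 on sham arrays. Its groups overlapped through 1 high sham array, and the change was 0.72 (SE 0.21, adjusted p = 0.00737). Cox6b2 is a form of a complex IV subunit known from testis. Cox6b2 signals were 91.9, 204, 78.6, 86.9 and 127 on sham arrays and 82.1, 90.1, 88.4, 86.4 and 120.2 on castrated 3 days arrays. They were 219, 245, 180, 214 and 301 on castrated 14 days arrays and 206, 409.6, 256, 197 and 283 on testosterone arrays. It was above the filter on 4 castrated 14 days, 5 testosterone and 1 sham array and on no castrated 3 days array. It was thus tested because of the groups where it is high, and its levels are given as a description.

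Members that fell by 14 days were Uqcrq of complex III, Ndufa10, Ndufa7 and Ndufa3 (96915_f_at) of complex I, Cox8c of complex IV, and Atp5d (161494_f_at) and Atp5g1 of ATP synthase. Uqcrq changed by -0.58 (SE 0.11, adjusted p = 2.61e-04) over sham and its groups did not overlap. Ndufa10, an accessory subunit, had 278, 249, 354, 301 and 314 on castrated 14 days arrays and 403, 331, 379, 399 and 438 on sham arrays, which overlapped in part. Its change was -0.37 (SE 0.11, adjusted p = 0.0105). Cox8c, known as a testis form of the smallest complex IV subunit, changed by -0.35 (SE 0.12, adjusted p = 0.0197), and Atp5d, the delta subunit of the central stalk, by -0.29 (SE 0.082, adjusted p = 0.00635). Ndufa7 changed by -0.31 (SE 0.11, adjusted p = 0.0269) and Ndufa3 by -0.25 (SE 0.092, adjusted p = 0.0275). Atp5g1 had 166, 144, 163, 110.1 and 121 on castrated 14 days arrays and 212, 247, 251, 179 and 257 on sham arrays, but it was above the filter on only 4 sham arrays and 1 castrated 3 days array and had to be high there to be tested, so these levels are a description. Members whose groups did not overlap were 18 higher and 4 lower, beside 19.4% and 15.7% of all probe sets.

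Of the 34 calls at 14 days over sham, 25 held in every alternative fit in which the probe set was tested, and 24 rises and 7 falls remained in number without the 4 arrays of raised Gapdh ratio. The calls of Cox8c, Ndufa7, Ndufa3 and Cycs ended in some fits that left out 1 array: sham replicates 3 and 5 and castrated 14 days replicate 5 for Cox8c (adjusted p up to 0.0588), sham 5 and castrated 14 days 1 and 3 for Ndufa7 (up to 0.0822), sham 3 and castrated 14 days 3 and 5 for Ndufa3 (up to 0.0837), and 7 arrays for Cycs (up to 0.133). Rises that ended when 1 array was left out were those of Ndufa8 (13 fits, up to 0.127), Ndufb10 (8, up to 0.0981), Atp5e (7, up to 0.1) and Cox16 (sham replicates 3 or 5 or castrated 14 days replicate 4, up to 0.0705). Under quantile normalization the fall of Ndufa7 was -0.13 (adjusted p = 0.166) and that of Ndufa3 -0.16 (0.142).

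Macrophage markers rose in 11 of 13 tested probe sets at 14 days over sham, with summed signals of 16607 to 23968 against 4222 to 5991 in sham, adipocyte and endothelial markers rose in 3 of 5 and 3 of 4, and smooth muscle markers rose in 1 and fell in 4 of 8. Fibroblast markers rose in 7 and fell in 2 of 11, luminal markers rose in 4 and fell in 1 of 10, and the tested basal probe set rose. Skeletal muscle markers rose in 2 of 16, and with their score as a covariate 25 members rose and 6 fell. The part of the other cell types was not tested.

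Between 3 and 14 days of castration the members rose in much larger number than they fell. Of 71 probe sets, 29 rose and 3 fell, beside 20.2% and 20.4% of all probe sets tested, and the median change was 0.24 against -0.01. Among probe sets with a mean signal above 1000, 23 of 54 members rose and 1 fell, beside 20% and 26.8% of 2008. Complex I had 13 rises and 1 fall among 28, complex III 4 rises and 1 fall among 9, complex II 2 rises among 4, complex IV 2 among 10, and ATP synthase 6 rises and 1 fall among 15. The assembly factor Ndufaf1 and cytochrome c rose too. Groups did not overlap for 30 members higher and 1 lower, beside 16.2% of all probe sets in either direction. The largest rises were in Cox6b2, Atp5md, Cycs, Atp5mpl, Ndufa5, Atp5k, Ndufb3 and Uqcr10. Cox6b2 stands in this count and ranking with the limit of the filter given above.

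Atp5md was 2.18-fold higher at 14 than at 3 days, with a log2 change of 1.13 (SE 0.18, adjusted p = 8.01e-05). Atp5mpl, another small membrane subunit of ATP synthase, had 4311, 4550.1, 3363, 5104 and 4814 on castrated 14 days arrays and 2898, 2373, 2593, 2517 and 2111 on castrated 3 days arrays. The groups lay apart, and the change was 0.82 (SE 0.13, adjusted p = 1.16e-04). Ndufa5, an accessory subunit of the matrix arm of complex I, had 3391, 4094, 3613, 4334 and 3531 on castrated 14 days arrays and 2298, 2639, 2077, 2569 and 1772 on castrated 3 days arrays. Its change was 0.75 (SE 0.15, adjusted p = 9.09e-04), without overlap. Uqcr10, an accessory subunit of complex III, had 3834, 4190, 3163, 4198 and 4609 on castrated 14 days arrays and 2786, 2420.2, 2729, 2584 and 1928 on castrated 3 days arrays. It changed by 0.68 (SE 0.13, adjusted p = 4.79e-04), again without overlap. Ndufb3 changed by 0.68 (SE 0.21, adjusted p = 0.0138).

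Cycs encodes cytochrome c itself. Cycs signals were 374, 216, 229, 229.7 and 173 on sham arrays and 185, 178, 237, 183 and 149 on castrated 3 days arrays. They were 343, 322, 656, 333 and 233 on castrated 14 days arrays and 446, 672, 392, 491 and 427 on testosterone arrays. At 14 days 1 array, replicate 3, was far above the rest, and the groups overlapped. Cycs changed by 0.90 (SE 0.22, adjusted p = 0.00372) at 14 over 3 days. Atp5k had 270, 368, 295, 324 and 234 on castrated 14 days arrays and 193, 202, 189.8, 216 and 102 on castrated 3 days arrays. The groups did not overlap, and the change was 0.71 (SE 0.16, adjusted p = 0.00223). The falls were Cyc1 (162469_r_at) with -0.35 (SE 0.14, adjusted p = 0.0476), Atp5d (161494_f_at) with -0.30 (SE 0.082, adjusted p = 0.00731) and Ndufa10 with -0.29 (SE 0.11, adjusted p = 0.0484). That of Cyc1 ended in 13 and that of Ndufa10 in 13 of the 20 fits without 1 array (adjusted p up to 0.137 and 0.133). The other probe set of Cyc1, 95072_at, went the other way, with a mean of 5084 at 14 days against 3520 at 3 days. Without the 4 arrays of raised Gapdh ratio 25 rose and 1 fell at 14 over 3 days, and the calls that ended were those of Cyc1 (162469_r_at, adjusted p = 0.0679), Ndufa10 (0.0838), Ndufaf1 (0.116), Atp5l (0.17), Ndufa2 (0.0518), Ndufa9 (0.0807) and Ndufb2 (95132_r_at, 0.0667).

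Skeletal muscle, a tissue rich in mitochondria, varied between these prostates. Of 16 tested probe sets for its markers, 10 rose and none fell at 14 over 3 days, and their 23 probe sets summed to 4134 to 34739 at 14 days (median 17560) against 2845 to 6108 at 3 days (median 4150.2). Myh2 of that list was never above the filter. The muscle forms of complex IV that had been left out moved with them: Cox6a2 changed by 3.59 (adjusted p = 0.00225) and Cox8b (160851_r_at) by 1.22 (adjusted p = 0.0188). With the muscle marker score as a covariate, 17 members rose and 1 fell at 14 over 3 days, while Atp5md, Atp5mpl, Ndufa5, Uqcr10, Ndufb3 and Atp5k kept their calls. Those of Cycs (adjusted p = 0.0958), Ndufc1 (0.107), Ndufs1 (0.0841) and Sdha (0.212) were among those that ended. Macrophage markers also rose, in 10 of 13 tested probe sets, and adipocyte markers in 3 of 5; their 17 and 9 probe sets summed to medians of 19246 and 4425 at 14 days against 10109 and 2008 at 3 days. Fcer1g and Ucp1 of those lists were never above the filter. The part of macrophages and adipocytes in the result was not tested.

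**Figure D3:**
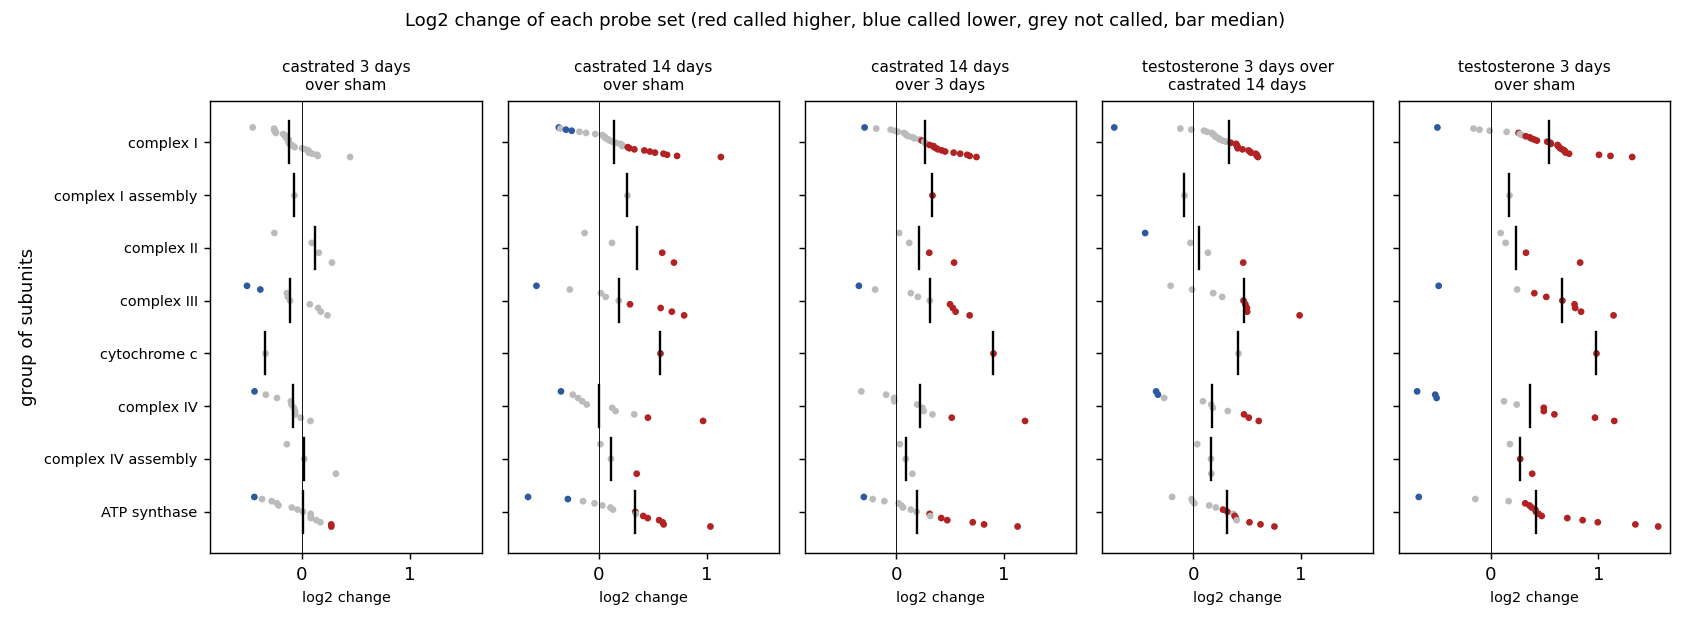
Log2 change (x axis) of each of the 71 probe sets in 5 comparisons (panels), by group of subunits (y axis); red points rose, blue fell, grey did not pass the test, and the black bar is the median. Complex I and ATP synthase points lie around 0 at 3 days over sham and mostly to the right in the testosterone over sham panel, where the medians are 0.54 and 0.42.

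After 3 days of testosterone, many members stood above their level at 14 days of castration. Of 71 probe sets, 30 rose and 4 fell against castrated 14 days, beside 18.2% and 26.6% of all probe sets tested. Among probe sets with a mean signal above 1000, 28 of 54 members rose and 2 fell, beside 29.7% and 20.8% of 2008 probe sets. The median change was 0.27, against -0.10 over all probe sets. Complex I had 14 rises and 1 fall among 28, complex III 5 rises among 9, complex IV 3 rises and 2 falls among 10, ATP synthase 7 rises among 15, and complex II 1 rise and 1 fall among 4. The largest rises were in Uqcrq, Atp5o, Atp5d (161145_f_at), Cox6a1, Ndufb6, Ndufc1, Ndufa13 and Ndufa3 (96915_f_at).

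Uqcrq, which had fallen with castration, was 1.98-fold higher with testosterone than at 14 days of castration, without overlap, a log2 change of 0.99 (SE 0.11, adjusted p = 9.11e-07). Atp5o encodes the subunit that ties the peripheral stalk of ATP synthase to its catalytic head. Atp5o signals were 1539.6, 1182, 1372, 1435 and 1234 on sham arrays and 1978, 1450.1, 1507, 1507 and 1242 on castrated 3 days arrays. They were 1879, 1975, 2192, 2245 and 1912 on castrated 14 days arrays and 2613, 4640.1, 3338, 2889 and 4098 on testosterone arrays. The testosterone arrays lay above all others, and the castrated 14 days arrays lay above all sham arrays. Atp5o changed by 0.75 (SE 0.14, adjusted p = 2.79e-04) over castrated 14 days.

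Ndufa3, an accessory subunit of complex I, had 5014, 5213, 5465, 4699.9 and 4513 on testosterone arrays and 3526, 3576, 3157, 3563 and 2850.3 on castrated 14 days arrays (96915_f_at). The groups lay apart, and the change was 0.58 (SE 0.092, adjusted p = 4.49e-05). Ndufb6, another accessory subunit, had 2756, 4424, 3026, 3208 and 3485 on testosterone arrays and 2147, 2162, 1925, 2461 and 2327 on castrated 14 days arrays. Its change was 0.60 (SE 0.11, adjusted p = 2.34e-04), without overlap. Cox6a1 is the form of its complex IV subunit that most tissues use, and it had 8325, 11877, 11193, 10338 and 11002 on testosterone arrays and 6618, 6655, 5070.4, 8917 and 7689 on castrated 14 days arrays. The lowest testosterone array fell inside the castrated range, and the change was 0.61 (SE 0.12, adjusted p = 5.43e-04).

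Ndufa13, an accessory subunit also known as GRIM-19, changed by 0.59 (SE 0.14, adjusted p = 0.00167), and Ndufc1 by 0.59 (SE 0.21, adjusted p = 0.0289). Atp5d (161145_f_at) changed by 0.62 (SE 0.15, adjusted p = 0.00252). Among the members that did not pass the test were Ndufb3 and Uqcrb, with changes of -0.018 and -0.011, both of which had been higher at 14 days of castration than in sham.

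The 4 falls against castrated 14 days were Ndufa6, Sdha, Cox7a2l and Cox8c. Ndufa6 is an accessory subunit of complex I that binds the acyl carrier protein. Ndufa6 signals were 1023, 1389, 1229, 1282 and 1119.6 on sham arrays and 1289, 1346, 1217, 1357 and 1235 on castrated 3 days arrays. They were 1805, 1944, 1376, 2049.5 and 2306 on castrated 14 days arrays and 899.7, 1429, 1056, 999 and 1291 on testosterone arrays. The castrated 14 days arrays were the high ones, with 1 of them inside the testosterone range. Ndufa6 changed by -0.73 (SE 0.14, adjusted p = 1.94e-04) with testosterone, after 0.63 (SE 0.14, adjusted p = 6.48e-04) at 14 days over sham. Sdha is the flavoprotein subunit of complex II that oxidises succinate. Sdha signals were 461, 493, 479, 474 and 422 on sham arrays and 587, 532, 609.5, 519 and 595 on castrated 3 days arrays. They were 650.1, 665, 880.4, 716 and 637 on castrated 14 days arrays and 459, 562, 471, 541 and 543 on testosterone arrays. Every castrated 14 days array exceeded every sham and testosterone array. Sdha changed by -0.45 (SE 0.093, adjusted p = 6.44e-04) with testosterone over castrated 14 days.

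Cox7a2l, a relative of a complex IV subunit known for joining complexes III and IV in supercomplexes, had 2706, 3102, 2741, 2803 and 3261 on testosterone arrays and 3825, 3883, 3114, 3801 and 3981 on castrated 14 days arrays. Only the lowest castrated array overlapped the testosterone range, and the change was -0.35 (SE 0.10, adjusted p = 0.00674). Cox8c changed by -0.33 (SE 0.12, adjusted p = 0.0331). With each array centred on its median, the calls of Sdha (adjusted p = 0.0773), Cox7a2l (0.405) and Cox8c (0.359) ended and that of Ndufa6 held. The call of Cox8c also ended without castrated 14 days replicates 1, 2 or 3 or testosterone replicates 3, 4 or 5 (0.0521 to 0.0881).

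The scaling of the arrays bears on this comparison. Centring each array on its median moved the median of all probe sets at testosterone over castrated 14 days to 0.09, and 1825 probe sets rose and 1028 fell in place of 1259 and 1840. Under that scaling the members' median was 0.47, and 46 rose and 1 fell. Quantile normalization went the other way: the members' median was 0.19, 20 rose and 5 fell, and 12 of the 30 rises ended, while 1392 of all probe sets rose and 1479 fell. Those 12 were Atp5a1 (-0.0065), Atp5c1 (92799_g_at, 0.036), Atp5l (0.11), Atp5md (0.29), Atp5mpl (0.12), Cox7a2 (0.22), Cyc1 (95072_at, 0.23), Ndufa7 (0.19), Ndufb11 (0.23), Ndufb2 (95131_f_at, 0.078), Ndufb7 (0.24) and Ndufc1 (0.48). Without the 4 arrays of raised Gapdh ratio, 23 rose and 4 fell. The rises that ended were those of Ndufc1 (adjusted p = 0.298), Ndufv3 (0.152), Ndufb2 (95131_f_at, 0.143), Ndufb11 (0.123), Ndufa8 (0.0971), Atp5c1 (92799_g_at, 0.091) and Atp5mpl (0.0603). The fall of Cox8c ended too (0.0578). The calls of Atp5md and Atp5mpl also ended without castrated 14 days replicate 3 (adjusted p = 0.0751 and 0.0714) or testosterone replicate 2 (0.0699 and 0.0679), and that of Atp5md without testosterone replicate 5 (0.0605). That of Ndufc1 ended without castrated 14 days replicates 3 or 5 or testosterone replicates 2 or 5 (0.0559 to 0.0885).

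Marker lists of other cell types moved in this comparison as well. Smooth muscle markers rose in 6 of 8 probe sets, with a summed signal of 38878 to 41750.2 on testosterone arrays against 17224 to 22879 on castrated 14 days arrays. Macrophage markers fell in 12 of 13 tested probe sets, with 7322 to 10077 against 16607 to 23968. Adipocyte markers fell in 4 of 5, with 1242 to 1885 against 3066 to 4925. Skeletal muscle markers rose in 1 and fell in 1 of 16, and with the muscle score as a covariate 30 members rose and 3 fell. Fibroblast markers rose in 6 and fell in 3 of 11, endothelial markers fell in 3 of 4 and the tested basal probe set fell. Luminal epithelial markers fell in 5 and rose in 1 of 10. The part of these cell types in the result was not tested.

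**Figure D4:**
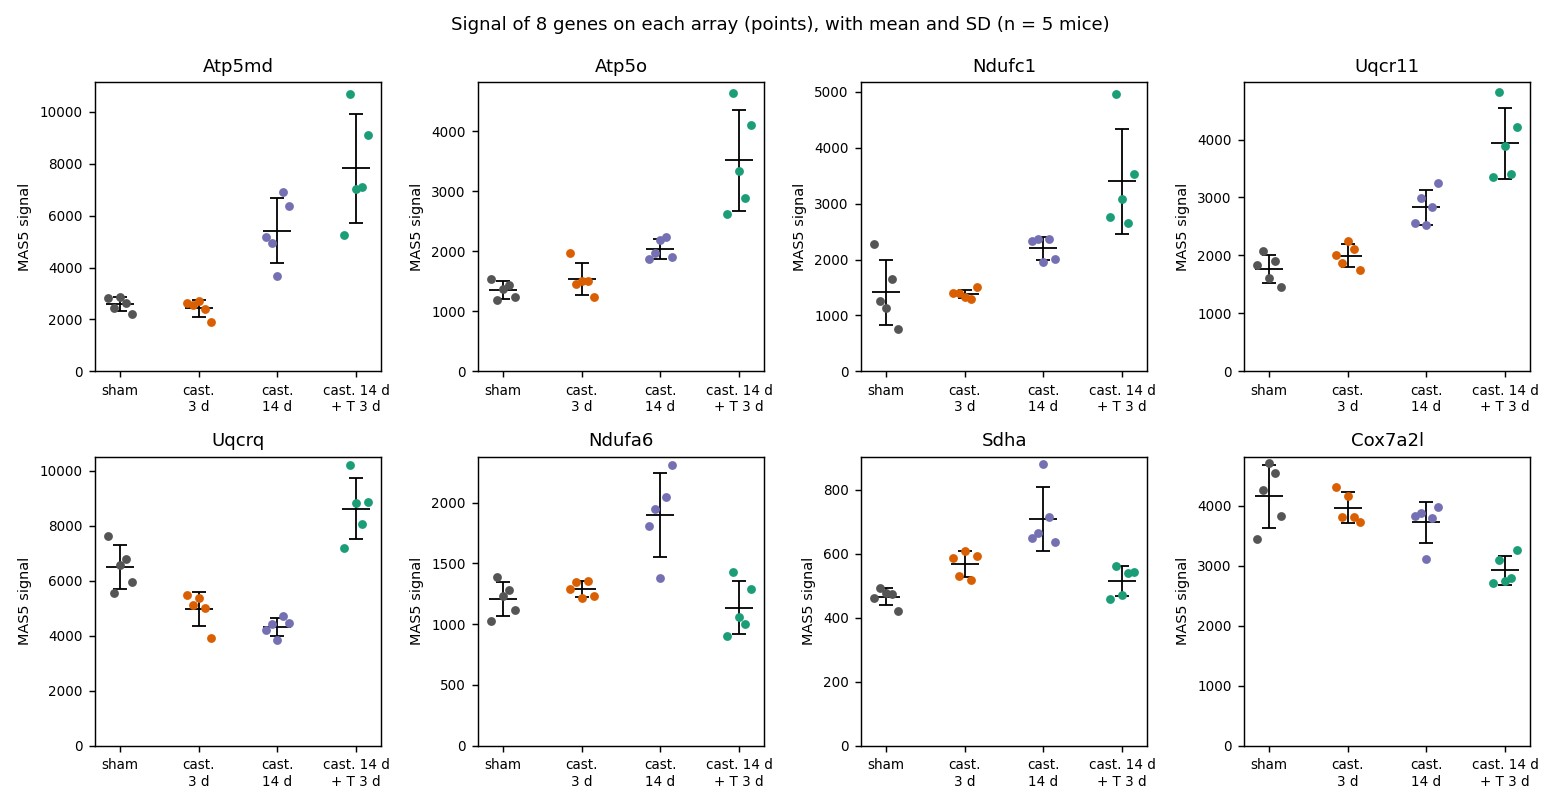
MAS5 signal (y axis, linear from 0) of Atp5md, Atp5o, Ndufc1, Uqcr11, Uqcrq, Ndufa6, Sdha and Cox7a2l on each array (points), with mean and SD over 5 mice, in sham, castrated 3 days, castrated 14 days and testosterone prostates (x axis). The top panels climb to their highest mean with testosterone, while Uqcrq dips at 14 days of castration and Ndufa6 and Sdha peak there.

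Set against sham, prostates regrowing under testosterone carried more transcript for most of the members. Of 71 probe sets, 50 rose and 6 fell, beside 23.5% and 29.5% of all probe sets tested. The median change was 0.43, against -0.09 over all probe sets. Among probe sets with a mean signal above 1000, 42 of 54 members rose and 2 fell, beside 30.0% and 26.9% of 2008. Complex I had 21 rises and 1 fall among 28, complex III 7 rises and 1 fall among 9, ATP synthase 12 rises and 1 fall among 15, complex IV 5 rises and 3 falls among 10, and complex II 2 rises among 4. Cytochrome c rose, as did the complex IV assembly factors Cox16 and Cox18, whose calls ended without the 4 arrays of raised Gapdh ratio (0.20, adjusted p = 0.169, and 0.17, adjusted p = 0.221). The call of Cox18 also ended without sham replicates 3 or 4 or testosterone replicates 2 or 5 (0.0715 to 0.0958). The largest rises were in Atp5md, Atp5o, Ndufc1, Cox6b2, Uqcr11, Ndufb3, Ndufab1 and Atp5mpl.

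Atp5md was 2.94-fold higher with testosterone than in sham, a log2 change of 1.56 (SE 0.18, adjusted p = 1.08e-06). Atp5o was 2.54-fold higher, with a change of 1.34 (SE 0.14, adjusted p = 4.59e-07). Uqcr11 had 3348, 4819, 3885, 3399.5 and 4224 on testosterone arrays, all above the sham range given above, and changed by 1.14 (SE 0.12, adjusted p = 3.11e-07). Ndufab1 is the mitochondrial acyl carrier protein, which is also a complex I subunit. Ndufab1 signals were 1719.6, 1359.9, 1602, 1472 and 1349 on sham arrays and 1354, 1587, 1306, 1478 and 1172 on castrated 3 days arrays. They were 2011, 2065, 2189, 1951 and 2182 on castrated 14 days arrays and 2392, 3646, 2912, 2953 and 3318 on testosterone arrays. Every testosterone array lay above every castrated 14 days array, and those lay above all sham and castrated 3 days arrays. Ndufab1 changed by 1.01 (SE 0.11, adjusted p = 5.60e-07) over sham.

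Ndufc1 had 2765, 4959.7, 3080, 2659 and 3533 on testosterone arrays, all above every sham array, and changed by 1.31 (SE 0.21, adjusted p = 4.76e-05). Ndufb3 had 1915, 4886, 2676, 2657 and 3720.4 on testosterone arrays, also above every sham array, and changed by 1.11 (SE 0.21, adjusted p = 2.08e-04). Atp5mpl had 4815, 7803, 5537, 5084 and 6039 on testosterone arrays and 2919, 3293, 3081, 2721 and 2493 on sham arrays. Its groups did not overlap, and it changed by 1.0 (SE 0.13, adjusted p = 6.64e-06). Cox6b2 is among them with the limit of the filter given above. Groups did not overlap for 35 members higher and 5 lower, beside 15.4% and 16.0% of all probe sets. In cytochrome c the change was 0.97 (SE 0.22, adjusted p = 0.00131).

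The 6 falls against sham were Cox8c, Cox6b1 and Cox7a2l of complex IV, Atp5g1 of ATP synthase, Ndufa10 of complex I and 1 of the probe sets of Cyc1. Cox8c had 714, 653, 570.3, 596 and 529 on testosterone arrays and 751, 1016, 1155, 920.3 and 1143 on sham arrays. All testosterone values were below all sham values, and the change was -0.68 (SE 0.12, adjusted p = 1.30e-04). Cox7a2l had 3438, 4257, 4713, 4542 and 3835 on sham arrays, all above its testosterone values, and changed by -0.50 (SE 0.10, adjusted p = 2.91e-04). Ndufa10 had 330, 296, 223, 247 and 278 on testosterone arrays, all below the sham arrays, and changed by -0.49 (SE 0.11, adjusted p = 0.00149). Cox6b1, the form of its subunit that most tissues use, changed by -0.51 (SE 0.18, adjusted p = 0.0253) with overlap. Atp5g1 is counted here with the limit of the filter given above.

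With each array centred on its median, 2026 of all probe sets rose and 1205 fell at testosterone over sham, in place of 1624 and 2041, and the members' median was 0.60. Of the 56 calls, 44 held in every alternative fit in which the probe set was tested, and 42 rises and 5 falls were called without the 4 arrays of raised Gapdh ratio. The calls that ended included Cox6b1 without sham replicates 2 or 3 or testosterone replicate 5 (adjusted p 0.0705 to 0.081) and under median centring (0.11), and Cox7a2l under median centring (0.0514). Markers of other cell types differed from sham too: macrophage markers rose in 11 of 13 tested probe sets, fibroblast markers rose in 8 and fell in 2 of 11, smooth muscle markers rose in 3 of 8, skeletal muscle markers rose in 3 and fell in 1 of 16, and luminal markers rose in 3 and fell in 3 of 10. The summed macrophage signal was 7322 to 10077 on testosterone arrays and 4222 to 5991 on sham arrays. The part of these cell types in the result was not tested.

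**Figure D5:**
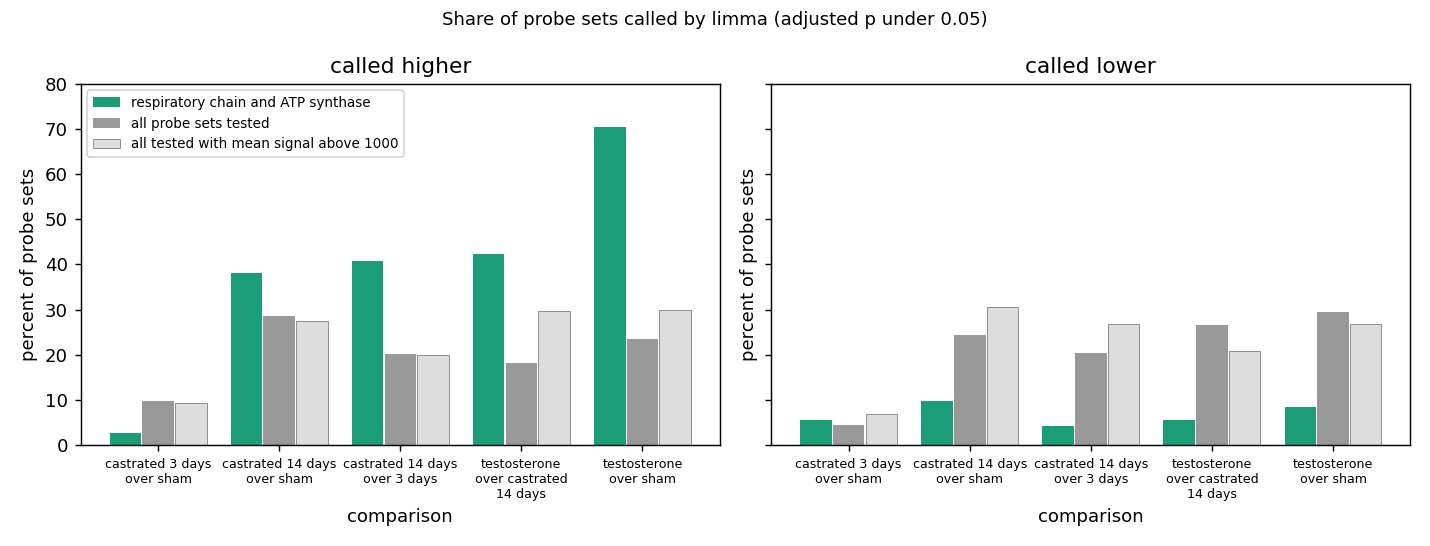
Share of probe sets called higher (left) and lower (right), in percent from 0, for the 71 respiratory chain and ATP synthase probe sets (green), all 6913 tested (dark grey) and the 2008 tested with a mean signal above 1000 (light grey), in 5 comparisons. The green bars for higher calls are 2.82%, 38.0%, 40.8%, 42.3% and 70.4%, and each but the first stands above both grey bars.

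The core subunits of complex I, which carry out its electron transfer, did not all pass the test. Ndufv1, which holds the NADH site, changed by -0.0079 with testosterone over sham and passed the test in no comparison. Ndufs1, the largest iron-sulphur subunit, averaged 1219 ± 114 with testosterone, 1118 ± 135 at 14 days of castration and 774 ± 67.5 in sham (SD, n = 5 each). It changed by 0.65 (SE 0.094, adjusted p = 1.70e-05) with testosterone over sham and by 0.52 (SE 0.094, adjusted p = 1.39e-04) at 14 days over sham. Ndufs3, another core subunit, changed by 0.43 (SE 0.11, adjusted p = 0.00334) with testosterone over sham. Without the 4 arrays of raised Gapdh ratio that change was 0.25 and still passed the test. Ndufv2, an iron-sulphur subunit of the NADH module, averaged 3622 ± 172 with testosterone against 2355 ± 314 in sham (94062_at) and changed by 0.63 (SE 0.090, adjusted p = 1.36e-05).

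Most accessory subunits of complex I rose with testosterone over sham, among them Ndufb8 (0.73), Ndufa5 (0.70), Ndufb6 (0.69), Ndufa13 (0.69), Ndufa8 (0.66), Ndufa9 (0.64) and Ndufb7 (0.62), all on the log2 scale with adjusted p-values of 1.72e-05 to 9.58e-04. Ndufb5 averaged 9159.9 ± 1891 with testosterone and 7502 ± 807 in sham, a change of 0.27 that did not pass the test (adjusted p = 0.095). Ndufa7, like Uqcrq, had its lowest mean at 14 days. It averaged 7186 ± 398 in sham, 6044 ± 684 at 3 days, 5845 ± 794 at 14 days and 8016 ± 1061 with testosterone. Its change was -0.31 (SE 0.11, adjusted p = 0.0269) at 14 days over sham and 0.46 (SE 0.11, adjusted p = 0.00246) with testosterone over castrated 14 days. Under quantile normalization both calls ended, at -0.13 (adjusted p = 0.166) and 0.19 (adjusted p = 0.0713).

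The 4 subunits of complex II did not move as one. Sdha peaked at 14 days of castration, as given above. Sdhb, the iron-sulphur subunit, had 2427, 3447, 2555, 2480.3 and 2969.8 on testosterone arrays and 1998, 1999, 1953, 2004 and 2009 on castrated 14 days arrays. The groups did not overlap, and the change was 0.46 (SE 0.10, adjusted p = 9.13e-04), while at 14 days over sham it was -0.13 (adjusted p = 0.274). Sdhc, a membrane anchor, passed the test in no comparison, with changes between -0.027 and 0.12. Sdhd, the other anchor, whose promoter is printed above, followed another course. Sdhd signals were 1662, 1772, 1986, 1837 and 1825 on sham arrays and 2037, 1894, 2091, 2159 and 1958 on castrated 3 days arrays. They were 2785, 2948, 2853, 3116 and 3038 on castrated 14 days arrays and 2939, 4177, 2663, 3054 and 3557 on testosterone arrays. Castrated 14 days arrays all lay above castrated 3 days and sham arrays, and the testosterone arrays overlapped the castrated 14 days arrays. Sdhd changed by 0.70 (SE 0.10, adjusted p = 1.02e-05) at 14 days over sham and by 0.83 (SE 0.10, adjusted p = 1.74e-06) with testosterone over sham.

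In complex III the core subunits Uqcrc1 and Uqcrc2 rose with testosterone. Uqcrc1 had 3261, 4273, 4117, 3522 and 4391 on testosterone arrays, 2737, 2730.1, 2678, 2952 and 2664 on castrated 14 days arrays and 2320.4, 2149, 2097, 2429 and 2268 on sham arrays. None of these groups overlapped, and the change with testosterone was 0.50 (SE 0.084, adjusted p = 7.93e-05) over castrated 14 days and 0.79 (SE 0.084, adjusted p = 4.52e-07) over sham. Uqcrc2 averaged 2756 ± 597 with testosterone and 1949.5 ± 256 at 14 days of castration, a change of 0.48 (SE 0.13, adjusted p = 0.00393). With testosterone over castrated 14 days Uqcr10 changed by 0.27 (adjusted p = 0.105) and Uqcrb by -0.011 (adjusted p = 0.949). Uqcrh, the hinge protein, passed the test in no comparison and changed by 0.25 with testosterone over sham.

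In complex IV, Cox5b, one of the nuclear subunits facing the matrix, had 3765, 5434, 4037, 4009.6 and 4806 on testosterone arrays, 2953, 3134, 2752, 3315 and 3146 on castrated 14 days arrays and 2448, 2264, 2383, 2129 and 1942 on sham arrays. None of the groups overlapped, and Cox5b changed by 0.51 (SE 0.10, adjusted p = 3.52e-04) over castrated 14 days and by 0.97 (SE 0.10, adjusted p = 3.33e-07) over sham. Cox7a2 averaged 6919 ± 1208 with testosterone and 4547 ± 433 in sham, a change of 0.59 (SE 0.12, adjusted p = 3.05e-04). Cox4i1 (102124_f_at), a regulatory subunit, averaged 465 ± 55.7 with testosterone and 332 ± 84.5 in sham and changed by 0.49 (SE 0.14, adjusted p = 0.0058). Its other probe set, 93788_at, was too dim to be tested and averaged 96.1 with testosterone and 141.4 in sham. Cox6c did not pass the test in any comparison, with 0.24 at testosterone over sham. Cox6a1 changed by 0.49 (SE 0.12, adjusted p = 0.00279) over sham. Of the assembly factors, Cox17, a copper chaperone, passed the test in no comparison, and Cox16 changed by 0.39 (SE 0.12, adjusted p = 0.0144) with testosterone over sham. That call ended without the 4 arrays of raised Gapdh ratio (0.20, adjusted p = 0.169) and with the ratio as a covariate (adjusted p = 0.129).

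In ATP synthase Atp5a1, the alpha subunit of the catalytic head, had 7139.9, 7701, 7358, 7359.8 and 7078 on testosterone arrays and 5566, 6011, 5731, 6467 and 6539.9 on castrated 14 days arrays. The groups did not overlap, and it changed by 0.28 (SE 0.071, adjusted p = 0.00372), although under quantile normalization the change was -0.0065 (adjusted p = 0.948). Over sham it changed by 0.38 (SE 0.071, adjusted p = 1.96e-04). Atp5l, the g subunit, averaged 8471 ± 1248 with testosterone, 6479 ± 827 at 14 days and 6319 ± 576 in sham, with a change of 0.41 (SE 0.11, adjusted p = 0.00465) over sham. Atp5e, the epsilon subunit, averaged 3291 ± 863 with testosterone and 1769 ± 115 in sham and changed by 0.85 (SE 0.18, adjusted p = 6.04e-04). Atp5k averaged 388 ± 60.4 with testosterone and 231 ± 26.2 in sham and changed by 0.71 (SE 0.16, adjusted p = 0.00139). Atp5j, coupling factor 6, changed by 0.56 (SE 0.13, adjusted p = 0.00153) at 14 days over sham, while with testosterone over castrated 14 days it changed by -0.20 (adjusted p = 0.237).

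Probe sets of the same gene did not always go the same way, and 6 genes had more than 1 that was tested. Cyc1 is the clearest case. Probe set 162469_r_at had 1886, 1206, 1984, 1658 and 1366 on testosterone arrays and 2078, 1994, 2384, 2060.3 and 2698 on sham arrays and changed by -0.48 (SE 0.14, adjusted p = 0.00596), while 95072_at had values of 6269.8 to 8162 on testosterone arrays and changed by 0.52 (SE 0.12, adjusted p = 0.00135). The fall of 162469_r_at ended without the 4 arrays of raised Gapdh ratio (adjusted p = 0.0966). The direction for Cyc1 thus depends on the probe set read. For Atp5d, 161145_f_at rose with testosterone over castrated 14 days, and the changes of 161494_f_at (0.15, adjusted p = 0.157) and 162343_f_at (0.21, adjusted p = 0.254) did not pass the test. For Ndufa3, 102097_f_at passed the test in no comparison. For Atp5c1, 92798_at and 92799_g_at changed by 0.42 and 0.45 with testosterone over sham, both past the test. Ndufv2 (94062_at and 162327_f_at) changed by 0.63 and 0.56, and Ndufb2 (95131_f_at and 95132_r_at) by 0.40 and 0.26, all 4 past the test. Without the 4 arrays of raised Gapdh ratio both calls of Ndufb2 ended (0.22, adjusted p = 0.124, and 0.11, adjusted p = 0.272), and that of 95132_r_at also without sham replicates 4 or 5 or testosterone replicates 2 or 5 (0.0531 to 0.0798). In Affymetrix names a letter before _at marks a probe set that departs from the standard design, and _f marks one whose probes match several related sequences. Of the 71 tested, 48 end in plain _at and 16 in _f_at, and respiratory chain genes have many processed pseudogenes.

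Of the 103 members, 32 probe sets were not tested, with mean signals of 4.78 to 153.3. They left 11 genes without a tested probe set: Ndufa1, Ndufa12, Ndufc2, Ndufs4, Ndufaf4, Cox5a, Cox8a, Cox14, Cox20, Atp5j2 and Atp5pb. With no filter, 49 of the 103 rose and 20 fell with testosterone over sham, beside 1763 and 3317 of all 12422 probe sets. At 14 days over sham 23 rose and 17 fell, beside 2319 and 2690 of 12422. Just inside the filter stood Atp5g1 (96032_at), above 190.8 on 5 arrays, and just outside it Atp5pb (96898_at), above it on 4. Among the tested, 65 were above the filter on all 20 arrays, and of these 47 rose and 4 fell with testosterone over sham, 30 and 4 with testosterone over castrated 14 days, 26 and 3 at 14 over 3 days, 25 and 6 at 14 days over sham and 2 and 3 at 3 days over sham. No share of all probe sets under that stricter limit is given beside these counts. Cox4i2, the lung form of Cox4i1, was not analysed here.

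Other mitochondrial genes were read from lists chosen by function. Of 64 tested probe sets for the mitochondrial ribosome, which translates the core subunits encoded in mitochondrial DNA, 40 rose and 1 fell with testosterone over sham, 28 rose and 3 fell with testosterone over castrated 14 days, and 18 rose and 4 fell at 14 days over sham. All probe sets gave 23.5% and 29.5%, 18.2% and 26.6%, and 28.6% and 24.3% in the same comparisons, so the ribosome's rises at 14 days over sham were near the share of all probe sets. The largest changes with testosterone over sham were in Mrps25 (102128_f_at, 1.47, and 104234_at, 1.20) and Mrpl13 (1.35). Of 18 probe sets for citrate cycle enzymes, 9 rose and 2 fell with testosterone over sham, 5 rose with testosterone over castrated 14 days, and 7 rose and 4 fell at 14 days over sham. Idh3a (0.89), Idh2 (0.77) and Suclg1 (0.74) led the rises over sham. Of 11 for electron carriers and assembly outside the members, 6 rose and 1 fell with testosterone over sham, with Coq7, an enzyme of ubiquinone synthesis, at 1.29, Atpif1, the inhibitor of ATP synthase, at 0.98 and Etfdh at 0.75.

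The remaining lists held smaller numbers. With testosterone over sham, carriers of the inner membrane had 3 rises and 3 falls among 10 tested, with the phosphate carrier Slc25a3 at -1.47 and the adenine nucleotide carrier Slc25a4 at 0.89. Protein import had 5 rises and 2 falls among 15, and chaperones and proteases 5 and 1 among 8, including Hspe1 (0.63), Hspd1 (0.53) and, downward, the protease Yme1l1 (-0.91). Fatty acid oxidation, which shares Etfdh, Etfa and Etfb with the electron carrier list, had 7 rises and 2 falls among 16, and glycolysis 8 rises and 1 fall among 15, led by Pgam1 (0.88). Mitochondrial antioxidant enzymes had 1 rise and 1 fall among 5. Regulators of mitochondrial biogenesis had 1 rise and 3 falls among 9: Ssbp1 rose by 0.56, and the nuclear receptor Esrra (103964_at, -0.63), Yy1 (-0.55) and Polg2 were lower. The same percentages of all probe sets apply here, 23.5% higher and 29.5% lower.

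The labelled tissue bore its markers. The 11 probe sets for luminal epithelium, which include probasin (Pbsn) and keratins, summed to 36161 to 53319 on all 20 arrays. Of the basal markers Krt5, Krt14 and Krt15 were never above the filter. Array medians lay between 154.3 and 224.4 and the trimmed means of all arrays near 500. No array repeated another: pairs of arrays had at most 0.368% identical values and a correlation of at most 0.981.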

How the data were processed

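The deposited values are linear signal intensities that MAS5 5.0 gives for each probe set, per the submitters' processing notes. In each deposited column the trimmed mean lay between 500.2 and 500.3, so the arrays appear to have been scaled before deposit; scan settings are not given in the sources used here. Affymetrix mouse arrays held prostate RNA of 20 mice, 1 array per mouse and 5 per group, and the number of arrays limits the precision. Whether scan dates or runs differed between groups is not given in the sources used here. The numbers in the sample titles run on without a gap from sham to castrated 3 days. The castrated 14 days and testosterone arrays form separate later blocks, which also hold the arrays of raised Gapdh ratio. A batch that follows the groups could not be checked or told apart from them.

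Probe sets were named from GEO's platform annotation: of 12422 outside the controls, 10833 had 1 gene symbol, 396 several and 1193 none, and all 103 member symbols matched RefSeq. Values were taken as log2(signal + 12.7), where 12.7 is the 10th percentile of all values. A probe set was tested where at least 5 arrays exceeded 190.8, the median over all arrays without the controls. limma 3.58.1 in R 4.3.3 fitted the 4 groups together, and p-values of each of 5 comparisons were adjusted by the Benjamini-Hochberg method over 6913 probe sets, with a threshold of 0.05. The fit was tested on simulated data. Alternatives were 2 other pseudocounts (1 and 43.2), no filter, a filter on mean signal, median centring, quantile normalization, a fit of only the 2 groups compared, array weights, a trended prior, covariates for a muscle marker score and the Gapdh ratio, leaving out the 4 arrays of raised Gapdh ratio, and leaving out each array. Chosen after seeing the data were probe sets with plain _at names, 1 probe set per gene, and a background of mean signal above 1000.

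Members passing the filter could be named. Each comparison gives up to 8 of the largest rises and falls past the threshold, the brightest member of each complex and members going against their complex, besides Cox4i1, the Sdh genes, Cycs, Cyc1 and genes with several probe sets. Each other list gives up to 3 of its largest called changes. The members and lists (mitochondrial ribosome, citrate cycle, electron carriers and assembly, carriers, import, chaperones and proteases, fatty acid oxidation, glycolysis, antioxidant enzymes, biogenesis regulators and the cell type markers) were chosen with earlier results of these data known.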

Additional observations from a re-analysis of the deposited data

Results flagged for a closer look

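In 17 of 284 groups of 5 arrays, 1 array stood so far from the other 4 that its gap exceeded 0.71 of the group's range, Dixon's critical value, which chance exceeds in about 1 in 20 groups. Of the 17, 6 fell on castrated 3 days replicate 5. It was lowest for Atp5k (102.1, others 189.8 to 215.6), Atp5l (4363.2, others 5295.2 to 5492.8), Ndufa8 (909.7, others 1078 to 1125.2), Atp5e (1239.8, others 2086.9 to 2267.2) and Ndufa7 (4830.7, others 6271.4 to 6495.3), and highest for Cox6b2 (120.2, others 82.1 to 90.1).

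Castrated 14 days replicate 3 was lowest for Cox7a2l (3113.9, others 3801 to 3981.4) and Sdhb (1953.4, others 1997.9 to 2009.1) and highest for Cycs (656.4, others 233.4 to 343.2). Castrated 14 days replicate 4, an array of raised Gapdh ratio, was highest for Uqcrc1 (2951.7, others 2663.8 to 2736.8) and Cox4i1 (504.7, others 377.9 to 408.7). Testosterone replicate 2, also of raised Gapdh ratio, was highest for Cox6c (9155.8, others 7423.4 to 7858.9) and Uqcrc2 (3802.1, others 2369.2 to 2660.1). The remaining 4 were Atp5d (161145_f_at) lowest on castrated 3 days replicate 2 (358.1, others 591.1 to 603.5), Cox6c lowest on sham replicate 5 (5791.5, others 6838.1 to 7169.4), Ndufb10 highest on sham replicate 2 (2604.5, others 2193.4 to 2307.7) and Cycs highest on sham replicate 1 (373.9, others 173.4 to 229.7).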

How the results depend on the processing

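Of 162 calls over the 5 comparisons, 103 held in every alternative fit in which the probe set was tested, 58 ended in at least 1 and 1 turned its direction. That call was of Atp5a1 with testosterone over castrated 14 days, at -0.0065 under quantile normalization; Atp5c1 (92798_at), not called in the reported values, was at -0.20 there (adjusted p = 0.0395). With no filter the members' median was 0.14 at 14 over 3 days and 0.26 with testosterone over sham, and 17 fell at 14 days over sham, 20 fell with testosterone over sham and 0 rose at 3 days over sham. Under median centring the median was 0.47 with testosterone over castrated 14 days (46 rises and 1 fall) and 0.60 over sham, and at 3 days 0 rose and 2 fell. With the muscle score as a covariate 17 rose and 1 fell at 14 over 3 days. Falls at 14 over 3 days numbered 5 with array weights and 1 without the arrays of raised Gapdh ratio, with plain _at names or with 1 probe set per gene. Members that rose and fell at 3 days were 6 and 8 with array weights, 4 and 8 without the arrays of raised Gapdh ratio, and 5 and 8 with that ratio as a covariate; 1 rose with plain _at names or 1 probe set per gene. When each array was left out, 0 to 4 rose and 1 to 5 fell at 3 days over sham, 4 to 8 fell at 14 days over sham, and 1 to 3 fell at 14 over 3 days. The causes were not tested. No paired analysis was possible because each array held a different mouse and the labels give no pairing. The labels give no replicate numbers either, and those used here follow the order of the arrays in the deposited values. Dim probe sets near the filter give the least reliable changes.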

Other observations

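Another 11 probe sets carry a respiratory chain symbol together with a second one, often of a pseudogene, and were left out of the members. Of the 10 tested, 6 rose and none fell with testosterone over sham, 5 rose and none fell with testosterone over castrated 14 days, and 2 rose and 2 fell at 14 days over sham. The shares of all probe sets that rose and fell were 23.5% and 29.5%, 18.2% and 26.6%, and 28.6% and 24.3% in the same order. Their median change was 0.35 with testosterone over sham and 0.33 with testosterone over castrated 14 days.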
